A study of Mus musculus with 43 samples.

Results

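The genes described here are 46 genes of presynaptic vesicle release, a list of symbols matched to the Ensembl gene IDs of both nuclear RNA tables. A gene was a member if it reached 1 CPM, a count scaled to the size of its library, in 6 or more libraries of a table, and 46 of 46 did so in females and in males, out of 53379 gene IDs. Regions of open chromatin were members if they overlapped the span of such a gene or lay within 1 kb of its start, which gave 1387 of 165184 regions in females and 1432 of 192919 in males. The nuclei came from frontal cortex of wild-type Swiss Webster mice aged 2 months, fixed with paraformaldehyde and sorted for the neuronal protein NeuN. After weaning, the mice lived in environmental enrichment (EE), with a wheel, a tube and changing toys in a larger cage, or in standard housing (SH) with bedding and a nestlet. Nuclear RNA was measured in 6 EE and 6 SH libraries of females and 6 EE and 6 SH libraries of males. Open chromatin was measured by ATAC-seq, which marks sites where a transposase can insert, in 3 EE and 3 SH female libraries and in 6 EE and 7 SH male libraries. The labels do not say whether replicates were separate animals, so p-values measure the spread between these libraries, which may be technical.

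Transmitter leaves a nerve terminal when a vesicle fuses with the plasma membrane. Synapsins tether vesicles in a reserve, active zone scaffolds such as RIM, Bassoon and ELKS hold them near calcium channels, and Munc13 proteins (Unc13) prime them. Fusion is driven by the SNARE proteins syntaxin, SNAP-25 and synaptobrevin, is clamped and timed by complexins and synaptotagmins, and is followed by SNARE disassembly through NSF and by endocytosis through dynamin, amphiphysin and synaptojanin. The proteins act in the terminal, whereas the RNA measured here is nuclear and includes unspliced transcripts.

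The promoter windows of 6 members are given first, because they hold the start sites to which the RNA values below belong and overlap an open region in both sexes. They are the 3 members with the smallest p in female RNA and the 3 in male RNA among the 38 members with a window in the RefSeq promoter table (build GRCm38.p6), and each covers 250 bases before to 50 bases after the start, 5′ to 3′ on the strand of the gene. Capitals mark matches on either strand to the GC box GGGCGG, to TGACG, the core of the cAMP response site, or to the AP-1 site TGANTCA; the cAMP response core can overlap itself on the other strand. Stxbp6 (chr12:45074434-45074733, minus strand), Rims3 (chr4:120854549-120854848, plus strand) and Stx1a (chr5:135023232-135023531, plus strand) had the smallest p in females. Amph (chr13:18948101-18948400, plus strand), Ppfia2 (chr10:106470060-106470359, plus strand) and Unc13b (chr4:43058703-43059002, plus strand) had the smallest p in males.
Stxbp6: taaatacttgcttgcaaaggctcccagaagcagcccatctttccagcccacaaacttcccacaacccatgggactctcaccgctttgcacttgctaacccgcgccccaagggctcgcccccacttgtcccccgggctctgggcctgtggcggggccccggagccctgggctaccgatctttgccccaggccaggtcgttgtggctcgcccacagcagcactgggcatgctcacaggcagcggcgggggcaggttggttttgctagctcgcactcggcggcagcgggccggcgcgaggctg
Rims3: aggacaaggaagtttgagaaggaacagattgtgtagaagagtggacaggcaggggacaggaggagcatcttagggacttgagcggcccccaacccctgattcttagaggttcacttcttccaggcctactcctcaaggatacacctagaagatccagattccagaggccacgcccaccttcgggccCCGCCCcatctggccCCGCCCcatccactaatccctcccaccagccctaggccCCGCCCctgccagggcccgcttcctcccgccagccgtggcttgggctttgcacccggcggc
Stx1a: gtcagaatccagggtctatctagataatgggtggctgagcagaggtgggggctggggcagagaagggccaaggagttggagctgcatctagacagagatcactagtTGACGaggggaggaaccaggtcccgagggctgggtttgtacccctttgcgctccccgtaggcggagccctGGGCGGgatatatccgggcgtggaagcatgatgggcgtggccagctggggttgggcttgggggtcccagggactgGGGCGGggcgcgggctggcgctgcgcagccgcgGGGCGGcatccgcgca
Amph: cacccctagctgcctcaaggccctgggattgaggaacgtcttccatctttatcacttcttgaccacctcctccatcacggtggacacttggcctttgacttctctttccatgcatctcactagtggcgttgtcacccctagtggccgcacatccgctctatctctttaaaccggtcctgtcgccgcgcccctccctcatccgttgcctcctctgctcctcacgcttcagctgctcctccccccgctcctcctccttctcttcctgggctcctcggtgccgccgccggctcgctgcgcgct
Ppfia2: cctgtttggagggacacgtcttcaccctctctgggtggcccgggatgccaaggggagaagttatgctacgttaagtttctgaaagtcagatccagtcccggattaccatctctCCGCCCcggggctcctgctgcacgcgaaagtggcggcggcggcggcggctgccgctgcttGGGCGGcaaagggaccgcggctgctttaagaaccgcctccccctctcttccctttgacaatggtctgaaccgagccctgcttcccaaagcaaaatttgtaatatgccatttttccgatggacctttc
Unc13b: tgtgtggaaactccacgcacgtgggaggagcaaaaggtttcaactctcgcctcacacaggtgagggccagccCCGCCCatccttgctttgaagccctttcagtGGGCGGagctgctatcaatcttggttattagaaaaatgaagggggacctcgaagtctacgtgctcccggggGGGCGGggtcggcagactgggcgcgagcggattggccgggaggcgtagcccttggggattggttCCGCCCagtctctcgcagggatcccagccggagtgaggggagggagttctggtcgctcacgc
These windows are rich in CpG, with 11 CpG dinucleotides for Rims3 and 19 or 20 for the other 5, against a median of 7 over 32851 windows of all genes. The GC box occurs 4 times in the Unc13b window, 3 times each in the Rims3 and Stx1a windows and 2 times in the Ppfia2 window, and these letters are not in the Stxbp6 and Amph windows. Of 49 windows of members, 63.3% hold a GC box, 22.4% the cAMP response core and 6.12% an AP-1 site, against 35.7%, 20.8% and 7.81% of all windows. Windows of members had a median of 62.0% G or C and 19 CpG, against 52.7% and 7 of all windows. All windows were not limited to expressed genes, and the part of base composition in these shares was not tested. Among the windows shown, the cAMP response core is in that of Stx1a.

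Total counts per library ran from 10394786 to 15392672 in RNA, from 19075368 to 26257066 in female ATAC and from 27665194 to 73835546 in male ATAC. Of 5 neuronal markers 4 were detected, and Tubb3 was listed at 0 in the RNA tables. Markers of other cell types were present in the NeuN-sorted nuclei: the 6 astrocyte markers summed to 631 to 845 CPM in female EE libraries and 729.9 to 1171 CPM in female SH libraries. Most of this sum was Slc1a2, at a mean of 696 CPM in female EE and 804 CPM in female SH. The next highest, Slc1a3, was at 27.4 and 29.7 CPM. Female SH replicate 2 was the highest female library for astrocyte, oligodendrocyte, microglial and vascular markers, with summed levels of 1171, 355, 21.4 and 50.6 CPM. It was also the highest for markers of oligodendrocyte precursors (17.4 CPM) and of GABAergic neurons (137 CPM). Excitatory neuron markers summed to 1515 to 1689 CPM in female EE libraries and to 1745 to 1899 CPM in female SH libraries, without overlap, and the part of this in the results for females was not tested. GABAergic neuron markers summed to 90.3 to 135 CPM (median 115) in female EE libraries. In female SH libraries they summed to 71.8 to 137 CPM (median 91.9), and their part was not tested. Male astrocyte markers summed to 701 to 851 CPM (median 791) in EE and 652 to 743 CPM (median 709) in SH, and their part in the results for males was not tested either. Slc1a2 again made up most of this sum, at means of 730 CPM in male EE and 666 CPM in male SH. Expressed genes on the opposite strand overlap 11 members, and where reads are not counted by strand their reads cannot be told apart; beside the cases named below, Araf (47.5 CPM) overlaps Syn1 (214 CPM) and Ciz1 (46.1 CPM) overlaps Dnm1 (367 CPM). In such bulk samples, fewer cells of a type and less RNA per cell cannot be told apart.

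Relative to gene length, the release genes spanned a wide range of nuclear RNA levels (CPM per kb of gene span, introns included). In females, the SNARE Snap25 was highest, at 9.63 ± 0.417 CPM per kb (SD, n = 6) in EE, against 10.2 ± 0.338 in SH (SD, n = 6), followed by the vesicle SNARE Vamp2 at 8.90 ± 1.40 in EE and 9.35 ± 2.12 in SH. The vesicular glutamate transporter Slc17a7, which loads vesicles of cortical excitatory neurons, was next at 8.55 ± 0.338 CPM per kb in EE, against 8.78 ± 0.487 in SH. These neighbours in the order lay within each other's spread. Its relative Slc17a6, which is typical of subcortical glutamatergic neurons, was lowest, at 0.145 ± 0.0404 CPM per kb in EE and 0.136 ± 0.0244 in SH. In males the vesicle protein synaptophysin (Syp) was highest, at 11.8 ± 0.689 CPM per kb in EE and 12.2 ± 0.928 in SH, again next to Slc17a7, at 11.6 ± 0.614 in EE and 11.7 ± 0.301 in SH. In raw CPM the long calcium sensor gene Syt1 led, with a mean of 3994 ± 240.1 CPM in EE and 4053 ± 254 in SH in females.

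Most release genes varied little between libraries of 1 group. Their median SD of log2 CPM within groups was 0.100 in females and 0.0856 in males, against 0.191 and 0.156 over all genes tested. The genes tested were not matched to the members for RNA level, and the part of level in this difference was not tested. In each sex 10 of 46 members varied more than the median gene. The widest in females were Rab3b, a small GTPase of vesicles, at 0.525, the calcium sensor Doc2b at 0.481, the priming factor Unc13c at 0.446 and the vesicle glycoprotein Sv2c at 0.369, and in males Slc17a6 at 0.486.

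The comparison of female EE with female SH asked whether nuclear RNA of the release machinery differed with enrichment. The differences were small: 16 members were higher and 30 lower in EE, with a median log2 fold change of -0.02 against 0.00 over all 14587 genes tested, and scaling by total count alone gave 24 higher. None passed the test across all genes (edgeR quasi-likelihood test, Benjamini-Hochberg adjusted p under 0.05), as was the case for 0% of all genes, and limma-voom called none either. An unadjusted p under 0.05 was seen for 5 members, 1 higher and 4 lower, while 8.67% of all genes had one, 4.53% higher and 4.14% lower. In no member did the EE and SH libraries separate without overlap, as they did for 0.548% of all genes, and 50.6% of all genes were higher in EE. The lowest values in EE were those of Stxbp6 (amisyn), which binds syntaxin and SNAP-25 and restrains fusion, and of Rims3, a short RIM protein of the active zone. The highest relative to its spread was synapsin III (Syn3). DESeq2 called these 3 members (adjusted p = 0.00293 for Stxbp6, 0.00379 for Rims3 and 0.0442 for Syn3). The edgeR test called them too with a replicate block (0.0252, 0.0185 and 0.0301) and with no filter on low counts (6.34e-05, 0.00159 and 0.0108), so the call depends on tool, filter and design.

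**Figure D1:**
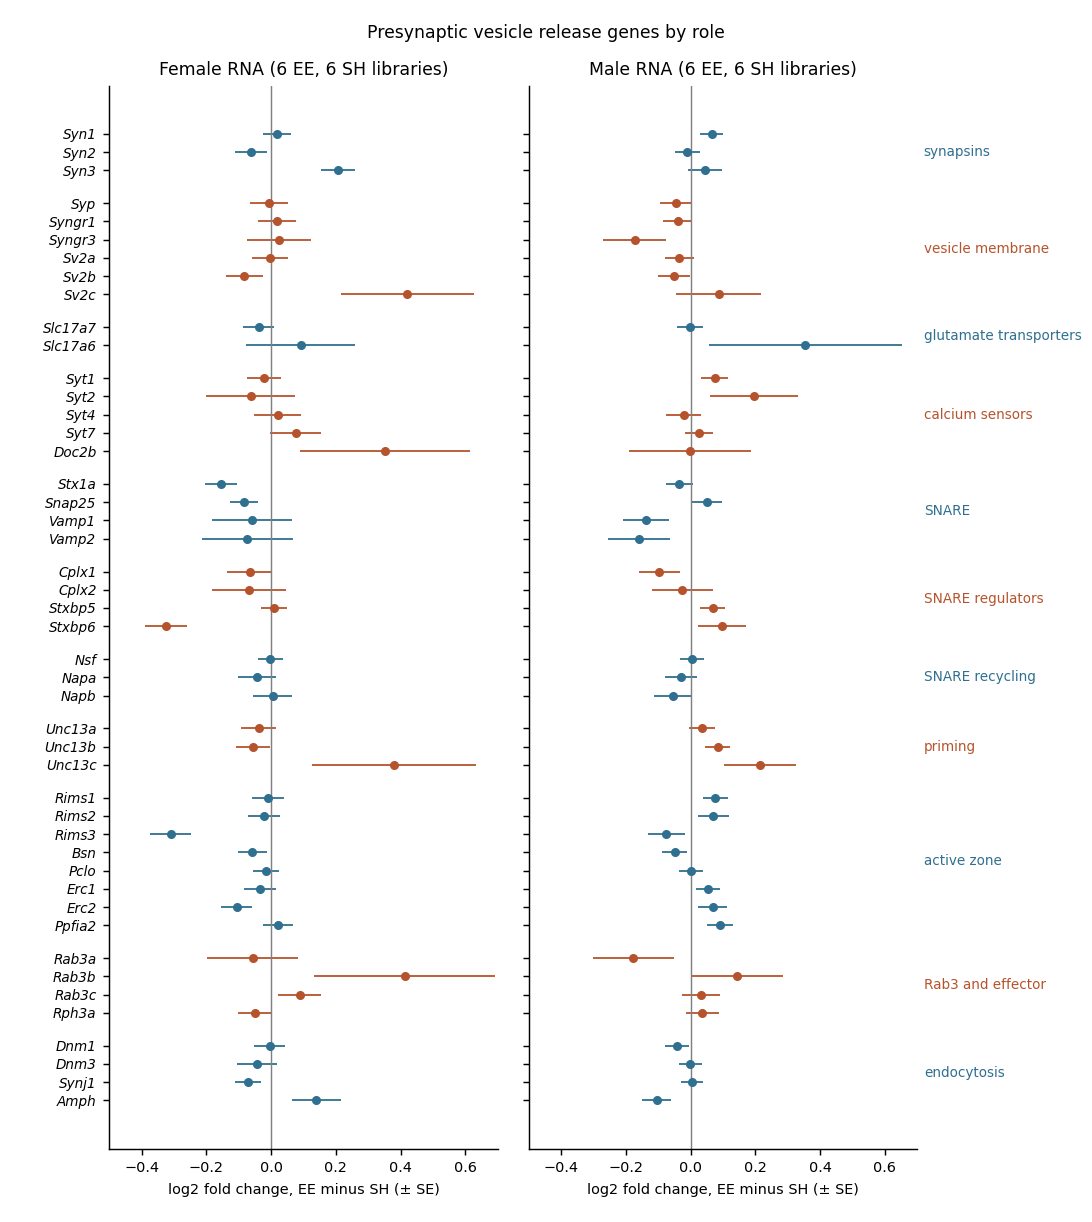
Log2 fold change of each of the 46 genes, EE minus SH, in female (left) and male (right) nuclear RNA, with genes grouped by role down the page; points are edgeR estimates and bars are 1 SE. Stxbp6 and Rims3 stand lowest in females at -0.32 and -0.31, and the male estimates lie between -0.18 and 0.35.

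Among the synapsins, Syn3 ranged from 318 to 381 CPM (median 340.0) in female EE libraries and from 262 to 319 CPM (median 301) in SH libraries. The groups overlapped only through EE replicate 4, which lay just below SH replicates 1 and 3, and 6 of 6 EE libraries lay above the SH median. The log2 fold change was 0.21 ± 0.05 (SE; adjusted p = 0.186 with the edgeR quasi-likelihood test). The gene Timp3 lies inside Syn3 on the opposite strand, at a mean of 7.74 CPM, and whether reads were counted by strand is not given in the sources used here. Syn1 and Syn2 had log2 fold changes of 0.02 ± 0.04 and -0.06 ± 0.05.

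The vesicle membrane genes divided 3 higher and 3 lower, and 5 higher and 1 lower with scaling by total count alone. Sv2c, the SV2 form that is best known from striatum and other subcortical regions, ranged from 31.3 to 69.0 CPM (median 51.3) in EE and from 26.7 to 50.02 CPM (median 36.5) in SH. The ranges overlapped widely, and EE replicate 1 was highest. Its log2 fold change of 0.42 ± 0.21 was the largest among members, with an adjusted p of 0.613 (edgeR). Sv2b, another SV2 gene, had -0.08 ± 0.06, and Syp, Syngr1, Syngr3 and Sv2a, which encode synaptophysin, 2 synaptogyrins and SV2A, lay between -0.01 and 0.02. The glutamate transporters Slc17a7 and Slc17a6 had log2 fold changes of -0.04 ± 0.05 and 0.09 ± 0.17.

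Of the genes grouped here as calcium sensors, 3 were higher and 2 lower, and 4 were higher with scaling by total count alone. Syt1, the main sensor for fast release in forebrain, had a log2 fold change of -0.02 ± 0.05, and Syt7, a slower sensor, had 0.08 ± 0.08. Syt4 was at 0.02 ± 0.07, and Syt2 at -0.06 ± 0.14, although Syt2 (23.8 CPM) is overlapped on the opposite strand by Ppp1r12b at 251 CPM. Doc2b, a sensor for spontaneous release, was at 0.35 ± 0.26 with a mean of 5.91 ± 1.99 CPM in EE and 4.59 ± 1.71 CPM in SH (SD, n = 6 each), and is overlapped by the antisense gene Gm12339 at 7.00 CPM.

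The 4 SNARE genes had log2 fold changes below 0 in females under each of the 3 scalings, but Vamp2 was at 0.06 without SH replicate 2 and Vamp1 at 0.01 without SH replicate 4. Stx1a, the syntaxin of the plasma membrane, ranged from 84.5 to 99.0 CPM (median 92.1) in EE and from 94.7 to 107 CPM (median 103) in SH. All 6 EE libraries lay below the SH median, with EE replicate 4 reaching into the SH range, and the log2 fold change was -0.16 ± 0.05 (adjusted p = 0.279, edgeR). Snap25 ranged from 629 to 715 CPM (median 656) in EE and from 675 to 735 CPM (median 703) in SH, with 5 of 6 EE libraries below the SH median. Its log2 fold change was -0.08 ± 0.04 (adjusted p = 0.606, edgeR). The vesicle SNAREs Vamp1 and Vamp2 were at -0.06 ± 0.12 and -0.07 ± 0.14, with 3 and 4 of 6 EE libraries above the SH median.

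Stxbp6 (ENSMUSG00000046314, chr12:44852484-45074709, mm10) gave the smallest p among the SNARE regulators and among all members in females. It ranged from 84.4 to 109.5 CPM (median 101) in EE libraries and from 106 to 139 CPM (median 128) in SH libraries. The groups overlapped only through EE replicate 5 at 109.5 CPM and SH replicate 1 at 106 CPM, and all 6 EE libraries lay below the SH median. The mean was 99.7 ± 8.32 CPM in EE and 125 ± 11.2 CPM in SH (SD, n = 6 each), a log2 fold change of -0.32 ± 0.06 (adjusted p = 0.0976, edgeR). Without SH replicate 1 the adjusted p was 0.0205, and without SH replicate 2, the library high in glial markers, it was 0.0334. The complexins Cplx1 and Cplx2, which bind assembled SNAREs, were both at -0.07 (SE 0.07 and 0.11), and Stxbp5 (tomosyn), another inhibitor of SNARE assembly, was at 0.01 ± 0.04. Recycling factors stayed near 0, with Napa at -0.04 ± 0.06 and Nsf and Napb closer still.

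**Figure D2:**
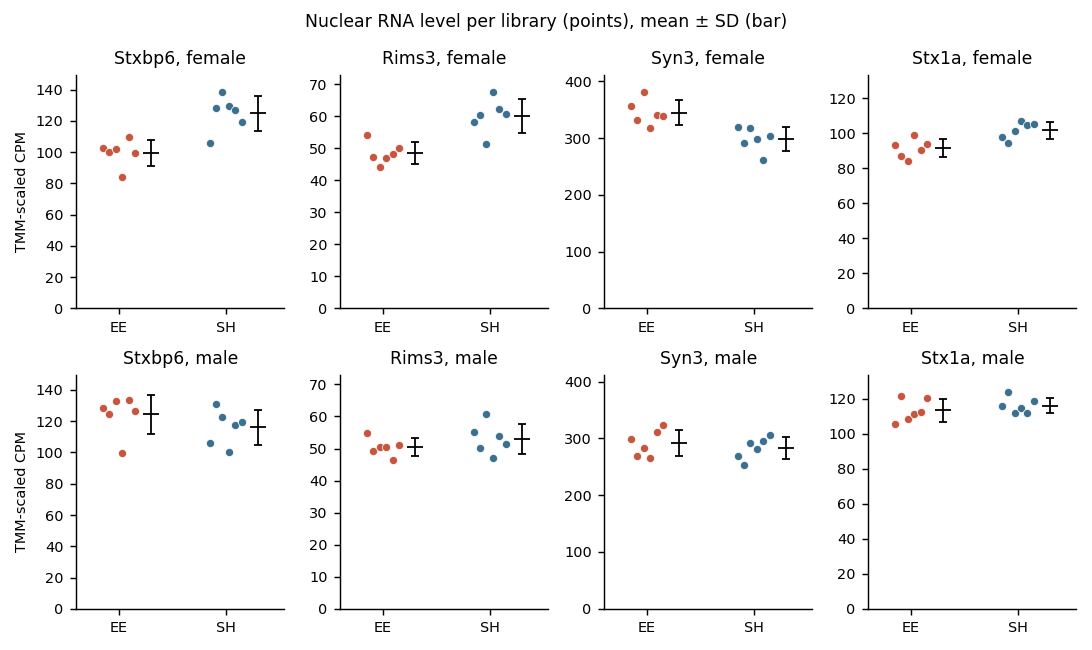
TMM-scaled CPM per library of the 4 genes with the smallest p in females, with EE left of SH, females above and males below; points are libraries and bars show mean ± SD (n = 6 each). Female EE libraries of Stxbp6 lie between 84.4 and 109.5 CPM and female SH libraries between 106 and 139, while in males EE and SH libraries overlap throughout.

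Of the priming genes, Unc13a and Unc13b were at -0.04 ± 0.06 and -0.06 ± 0.05. Unc13c, a Munc13 form best known from cerebellum, averaged 145 ± 38.6 CPM in EE and 111 ± 38.3 CPM in SH (SD, n = 6 each), with a log2 fold change of 0.38 ± 0.25. Its spread within groups was of the size of the difference.

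Active zone scaffolds were lower for 7 of 8 genes, and for 4 of 8 with scaling by total count alone. Rims3 (ENSMUSG00000032890, chr4:120854816-120896579, mm10) ranged from 44.1 to 54.1 CPM (median 47.7) in EE and from 51.3 to 67.6 CPM (median 60.4) in SH. The groups overlapped through EE replicate 1 at 54.1 CPM and SH replicate 3 at 51.3 CPM. The mean was 48.5 ± 3.38 CPM in EE and 60.001 ± 5.34 CPM in SH (SD, n = 6 each), a log2 fold change of -0.31 ± 0.06 (adjusted p = 0.0996, edgeR). Without EE replicate 1 the adjusted p was 0.0497, and without SH replicate 2 it was 0.0334. Erc2, an ELKS family scaffold, ranged from 2468 to 2839.6 CPM (median 2729.7) in EE and from 2686 to 3061 CPM (median 2975) in SH, with all 6 EE libraries below the SH median. Its log2 fold change was -0.11 ± 0.05 (adjusted p = 0.555, edgeR). The long RIM genes Rims1 and Rims2 were at -0.01 ± 0.05 and -0.02 ± 0.05. The large scaffolds Bsn and Pclo were at -0.06 ± 0.04 and -0.02 ± 0.04, Erc1 at -0.04 ± 0.05 and the liprin gene Ppfia2 at 0.02 ± 0.05.

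The vesicle GTPases Rab3a, Rab3b and Rab3c had log2 fold changes of -0.06 ± 0.14, 0.41 ± 0.28 and 0.09 ± 0.07, and their effector Rph3a (rabphilin) had -0.05 ± 0.05. Among the endocytosis genes, Amph (amphiphysin) ranged from 247 to 334 CPM (median 301) in EE and from 240.1 to 303 CPM (median 261) in SH. The ranges overlapped over most of their width, and the log2 fold change was 0.14 ± 0.08 (adjusted p = 0.644, edgeR). Synj1 (synaptojanin) was at -0.07 ± 0.04 with all 6 EE libraries below the SH median, and the dynamin gene Dnm3 was at -0.04 ± 0.06, while Dnm1 differed by less than 0.01.

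Sv2c followed markers of striatal projection neurons across female libraries. The 6 markers (Drd1, Drd2, Adora2a, Ppp1r1b, Tac1 and Penk), all 6 of them detected, summed to 34.9 to 101 CPM (median 73.3) in female EE libraries and 23.9 to 70.7 CPM (median 51.1) in SH libraries, but only to 14.7 to 22.5 CPM in male EE and 15.1 to 23.8 CPM in male SH libraries. Over the 12 female libraries, log2 Sv2c was higher where this sum was higher (Pearson r = 0.921, permutation p = 3e-05, adjusted p = 0.00276 over 92 relations; Spearman rho = 0.895, permutation p = 0.00022, adjusted p = 0.0202). It held within EE (r = 0.975) and within SH (r = 0.828), and r was 0.883 without the 2 libraries farthest from the median of the sum. Sv2c was the only member that passed among the 92 relations, 46 members in each sex, by Pearson's r. The striatal list was chosen after seeing these values, and the adjustment over 92 relations does not cover that choice. The p-values are therefore not those of a planned test, and relations with the other marker lists are not given here. For Unc13c, Rab3b and Doc2b in females r was 0.677, 0.694 and 0.719 (adjusted p = 0.171 each, permutation). Within EE r was 0.378, 0.058 and 0.494 for these genes, and within SH it was 0.764, 0.987 and 0.806. For Slc17a7 in females r was -0.805 (adjusted p = 0.0616, permutation). In males r was -0.272 for Sv2c (adjusted p = 0.920, permutation). The part of the dissected tissue in the female differences of these members was not tested.

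**Figure D3:**
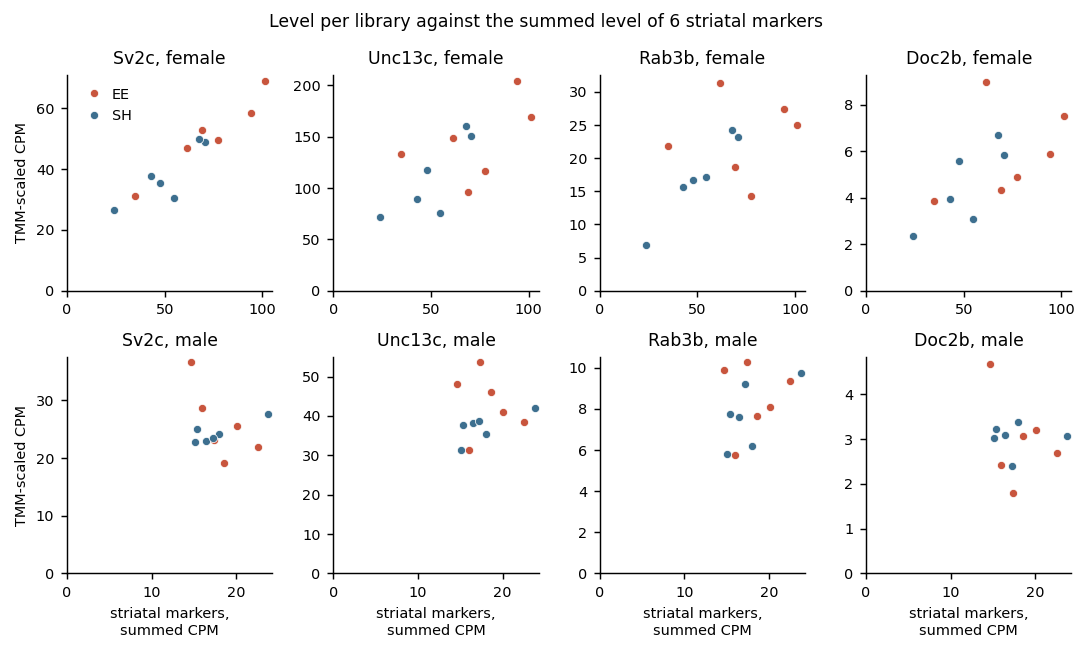
TMM-scaled CPM of Sv2c, Unc13c, Rab3b and Doc2b per library against the summed CPM of 6 striatal markers in the same library, females above and males below, with EE and SH libraries in different colours. Female Sv2c climbs with the marker sum in EE and in SH libraries (r = 0.921 over 12 libraries), and male libraries fall in a narrow range of the sum.

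The same comparison in males gave still smaller differences. Of 46 members 24 were higher and 22 lower in EE, with a median log2 fold change of 0.00 against -0.01 over all 14597 genes tested, and scaling by total count alone gave 20 higher. Of all genes 47.9% were higher. None passed the test (edgeR, adjusted p under 0.05), against 0.0411% of all genes, and DESeq2 and limma-voom called 0 members as well. An unadjusted p under 0.05 was seen for 3 members, 2 higher and 1 lower, while 8.03% of all genes had one, 4.09% higher and 3.94% lower. In no member did the EE libraries lie wholly above SH (0.288% of all genes) or the groups otherwise separate (0.541% of all genes in either direction). The smallest p belonged to Amph, which was lower, and to Ppfia2 and Unc13b, which were higher.

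Amph ranged from 230.2 to 276 CPM (median 256) in male EE libraries and from 249 to 288 CPM (median 279) in SH libraries. All 6 EE libraries lay below the SH median although the ranges overlapped, and the log2 fold change was -0.11 ± 0.05 (adjusted p = 0.561, edgeR). Dnm1, Dnm3 and Synj1 were within 0.05 of 0. Synapsin I (Syn1) ranged from 197 to 219 CPM (median 207) in EE and from 196 to 205 CPM (median 198) in SH, with 5 of 6 EE libraries above the SH median, at a log2 fold change of 0.06 ± 0.04. Syn2 and Syn3 were at -0.01 ± 0.04 and 0.05 ± 0.05.

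Vesicle membrane genes were lower for 5 of 6, with Syngr3 at -0.17 ± 0.10 and Syp, Syngr1, Sv2a and Sv2b between -0.05 and -0.03. Sv2c was at 0.09 ± 0.13, and -0.05 without EE replicate 4, which had 36.6 CPM against 19.1 to 28.7 CPM in the other 5 EE libraries. The same library was highest among EE libraries for Slc17a6 (10.1 CPM) and Doc2b (4.69 CPM), had 239 CPM of summed oligodendrocyte markers against 98.2 to 169.6 CPM in the other 5 EE libraries, and was lowest of the male libraries for excitatory markers, at 1546 CPM. The part of these markers in its values was not tested. Slc17a6 had a log2 fold change of 0.35 ± 0.30 with it and 0.05 without it, and Doc2b was within 0.01 of 0 with it and at -0.19 without it. Slc17a7 differed by less than 0.01.

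Syt1 ranged from 3787 to 4265 CPM (median 3826) in male EE libraries and from 3543 to 3907 CPM (median 3679) in SH libraries. All 6 EE libraries lay above the SH median, with EE replicate 1 well above the rest, and the log2 fold change was 0.07 ± 0.04 (adjusted p = 0.680, edgeR). Syt2, Syt4 and Syt7 were at 0.19 ± 0.14, -0.02 ± 0.05 and 0.03 ± 0.04. The vesicle SNARE Vamp1 ranged from 12.4 to 14.7 CPM (median 13.8) in EE and from 13.7 to 16.4 CPM (median 14.97) in SH. All 6 EE libraries lay below the SH median, at -0.14 ± 0.07 (adjusted p = 0.649, edgeR). Vamp2, Stx1a and Snap25 were at -0.16 ± 0.10, -0.03 ± 0.04 and 0.05 ± 0.05, and Cplx1, Cplx2, Stxbp5 and Stxbp6 at -0.10 ± 0.06, -0.03 ± 0.10, 0.07 ± 0.04 and 0.10 ± 0.07. Nsf, Napa and Napb stayed within 0.06 of 0.

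The 3 priming genes were higher in male EE libraries. Unc13b ranged from 178 to 202 CPM (median 186) in EE and from 172 to 184 CPM (median 178) in SH, with all 6 EE libraries above the SH median, at 0.08 ± 0.04 (adjusted p = 0.607, edgeR). Unc13c ranged from 31.4 to 53.8 CPM (median 43.6) in EE and from 31.4 to 42.0 CPM (median 37.996) in SH, at 0.21 ± 0.11 (adjusted p = 0.671, edgeR). EE replicate 1 was as low as the lowest SH library, and the other 5 EE libraries lay above the SH median. Unc13a was at 0.04 ± 0.04.

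Active zone genes were higher for 6 of 8 in males, and for 5 of 8 with scaling by total count alone. Ppfia2, a liprin that organises the active zone, ranged from 731 to 822 CPM (median 743) in EE and from 664 to 744 CPM (median 718) in SH. All 6 EE libraries lay above the SH median, and the log2 fold change was 0.09 ± 0.04 (adjusted p = 0.576, edgeR). Rims1 ranged from 1594 to 1733 CPM (median 1689) in EE and from 1483 to 1678 CPM (median 1606) in SH, at 0.08 ± 0.04 (adjusted p = 0.650, edgeR). Rims2, Erc1 and Erc2 were at 0.07 ± 0.05, 0.05 ± 0.04 and 0.07 ± 0.04, and Rims3 and Bsn at -0.08 ± 0.06 and -0.05 ± 0.04. Pclo differed by less than 0.01. Rab3a, Rab3b, Rab3c and Rph3a were at -0.18 ± 0.12, 0.14 ± 0.14, 0.03 ± 0.06 and 0.04 ± 0.05.

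Whether the housing difference itself differed between the sexes was tested in a fit of all 24 RNA libraries, where sex and sequencing run cannot be told apart. No member passed (edgeR interaction test, adjusted p under 0.05; 0.00643% of 15562 genes did), and 7 had an unadjusted p under 0.05, beside 8.98% of all genes. The female difference was above the male one in 19 of 46 members, against 52.0% of all genes, and of the 7 it was above in 2 and below in 5, against 4.4% and 4.58% of all genes. Stxbp6 had the smallest p: its EE minus SH log2 fold change was -0.32 in females and 0.10 in males, a difference of -0.42 ± 0.10 (adjusted p = 0.161). DESeq2 called this difference (adjusted p = 0.0126), and so did edgeR with a replicate block (adjusted p = 0.0391), with no filter (7.54e-05) and without male EE replicate 4 (adjusted p = 0.0362), the lowest male library for Stxbp6 at 99.8 CPM. The block joins libraries by replicate number, which in male RNA mostly does not match the numbers in the column headers. Rims3 differed by -0.24 ± 0.09 (adjusted p = 0.363), Erc2 by -0.18 ± 0.07 and Amph by 0.24 ± 0.09, where Erc2 and Amph had opposite signs in the sexes. Signs were shared between the sexes for 26 of 46 members (56.5%), 10 higher and 16 lower in both, against 47.4% of 14067 genes tested in both.

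Other genes of the vesicle cycle, 77 listed by role, gave no call either. In females 74 were tested, none was called, 10 had an unadjusted p under 0.05 (5 higher, 5 lower) and 38 were higher in EE, with a median of 0.01; of all genes 8.67% had such a p and 50.6% were higher. Those with the smallest p were Sh3gl2 (endophilin A1, an endocytosis factor) at -0.19 ± 0.06, the liprin genes Ppfia4 at 0.21 ± 0.07 and Ppfia3 at 0.13 ± 0.05, and Rimbp2, which links RIM to calcium channels, at -0.15 ± 0.05 (adjusted p = 0.279, 0.279, 0.344 and 0.397, edgeR). In males 75 were tested, none was called, 6 had an unadjusted p under 0.05 (4 higher, 2 lower) and 43 were higher, against 8.03% and 47.9% of all genes. Stxbp5l (tomosyn-2) was at 0.15 ± 0.04, the vesicle GTPase Rab27b at 0.14 ± 0.05, the scaffold Cask at 0.11 ± 0.04 and Synj2 at 0.23 ± 0.10 (adjusted p = 0.333, 0.394, 0.452 and 0.602, edgeR).

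Chromatin at the release genes was compared next, region by region. In females no member region passed (edgeR, adjusted p under 0.05; 0.0473% of 164926 regions did), and 67 of 1387 (4.83%) had an unadjusted p under 0.05, 23 higher and 44 lower, against 8.01% of all regions, 4.53% higher and 3.48% lower. More regions were lower than higher: 41.5% had a log2 fold change above 0, against 48.3% of all regions, with a median of -0.05 against -0.01. The summed level of member regions was 6983 to 7172 CPM in the 3 EE libraries and 7277 to 7360.0 CPM in the 3 SH libraries, without overlap, where 3 against 3 libraries cannot give an exact permutation p below 0.1. This sum was not made for regions of other genes. Regions of all genes at 1 CPM were also mostly lower, with 29.6% higher at starts and 44.6% higher in spans away from starts. Of single regions 10.7% did not overlap between the groups, 50 of them wholly above and 99 wholly below SH, against 12.8% of all regions, 6.46% above and 6.3% below.

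The lower share was strongest at gene starts, where it was shared with other genes. Of 77 regions within 1 kb of a member's start, 15 (19.5%) were higher in female EE, against 29.6% of the 15486 regions at starts of all genes at 1 CPM. Away from starts 42.8% of 1310 member regions were higher, against 44.6% of 94247 regions in spans of all such genes, and 59.8% of the regions outside genes and starts were. In males 27.3% of 55 member regions at starts were higher, against 28.6% of 12300 at all starts. Away from starts the male share was 39.1% of 1377 member regions, against 47.7% of 108400 regions in spans of all such genes. Regions at starts were thus mostly lower in EE for all genes and not only for release genes.

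**Figure D4:**
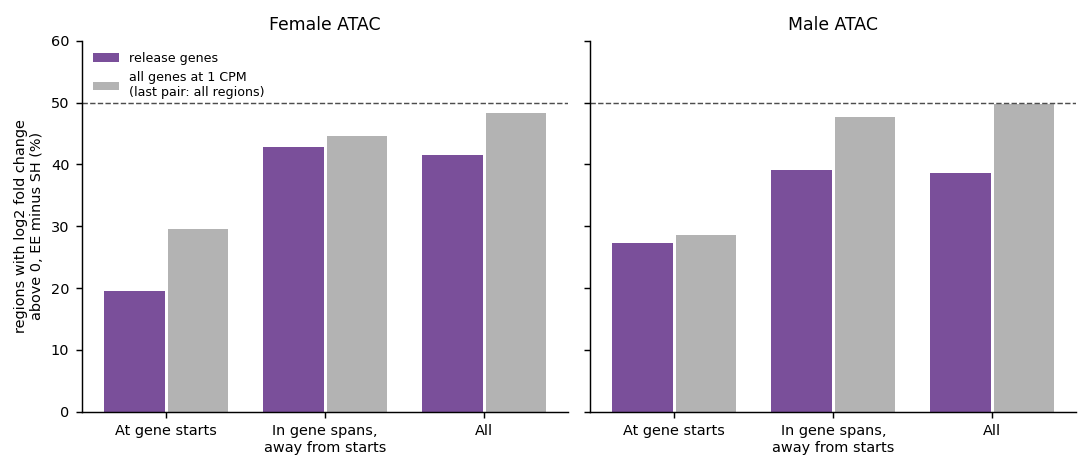
Percentage of ATAC regions with a log2 fold change above 0 (EE minus SH) for release genes beside all genes at 1 CPM, at starts and in spans, with all member regions beside all regions tested as the last pair; females left, males right, dashed line at 50%. Both kinds of gene fall lowest at starts, with 19.5% and 29.6% in females and 27.3% and 28.6% in males.

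At the promoter windows printed above, the open regions differed little. The female Stxbp6 start region held 22.2 ± 2.08 CPM in EE and 20.1 ± 3.13 CPM in SH (SD, n = 3 each), a log2 fold change of 0.15 ± 0.12, while its RNA was lower. The Rims3 start region held 4.78 ± 0.404 CPM in EE and 5.56 ± 1.41 CPM in SH (-0.21 ± 0.20), and the Stx1a region 8.84 ± 0.740 CPM in EE and 9.18 ± 1.02 CPM in SH (-0.05 ± 0.15). In males the Amph, Ppfia2 and Unc13b start regions had log2 fold changes of -0.02 ± 0.06, -0.06 ± 0.07 and -0.08 ± 0.09, none of them past its error.

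By gene, the regions of 35 of 46 members in females and 34 of 46 in males had a median log2 fold change below 0. This count was not made over all genes. Regions of all genes at 1 CPM had medians below 0 as well. These were -0.07 at starts and -0.03 in spans away from starts in females, and -0.03 and -0.01 in males. The medians of 5 members were above 0 in both sexes: Stxbp6, Unc13c, Erc1, Rab3c and Amph. Those of Amph were 0.009 in females and 0.002 in males. The summed level of a gene's regions gave a log2 ratio of means, EE over SH, in females and then males. It was 0.17 and 0.05 for Stxbp6, 0.24 and -0.002 for Unc13c and -0.07 and 0.03 for Erc1. For Rab3c it was 0.03 and 0.02, and for Amph -0.005 and -0.02. For Stxbp6, 17 of its 22 female regions (77.3%) and 36 of its 50 male regions (72.0%) were higher in EE, with medians of 0.15 and 0.05. For Unc13c 9 of 10 female and 9 of 14 male regions were higher, and for Erc1 5 of 6 female and 6 of 11 male regions. Rims3 had 4 of 22 female regions higher (18.2%, median -0.20) and 9 of 15 male regions higher (median 0.00).

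**Figure D5:**
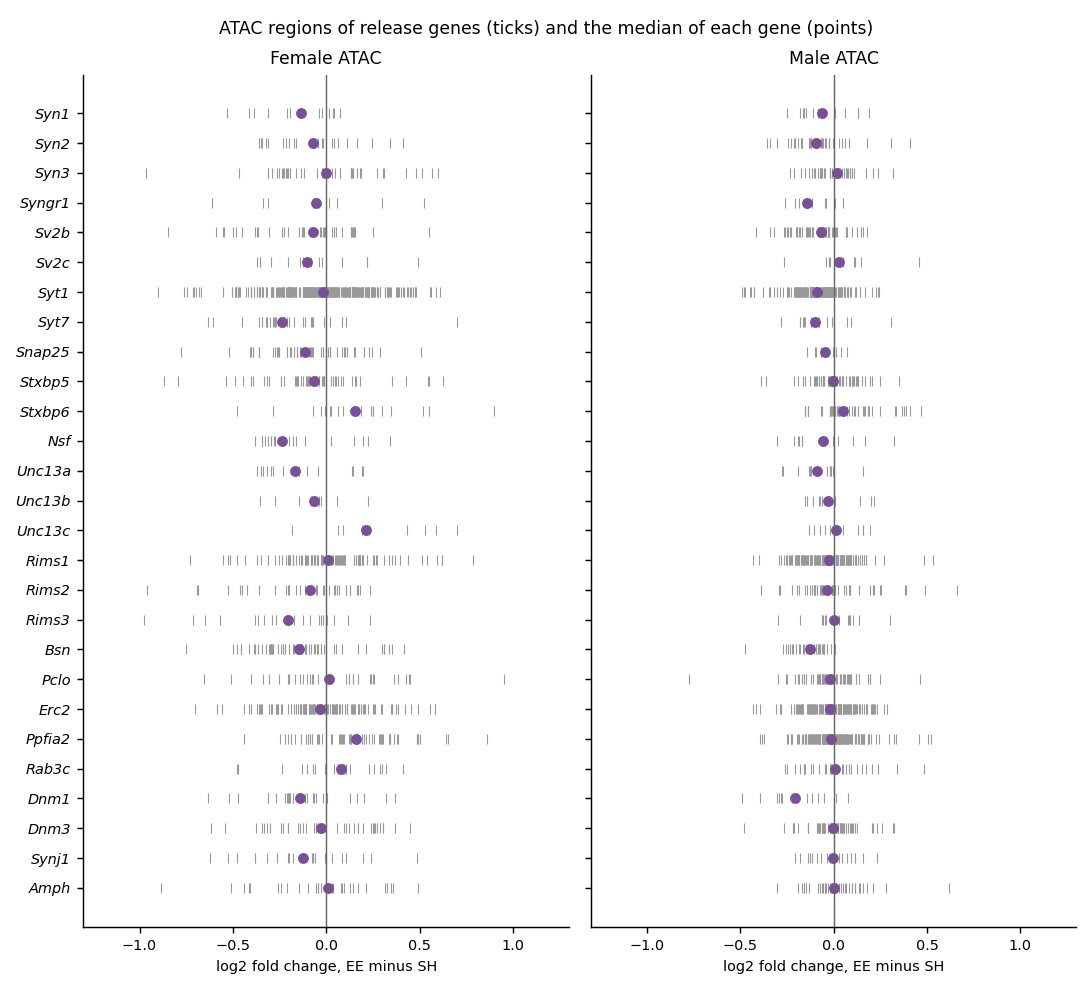
Log2 fold change (EE minus SH) of each ATAC region, as ticks, and the median of each gene, as points, for the 27 release genes with 10 or more regions in both sexes; females left, males right. Most medians lie left of 0, and those of 4 of these genes (Stxbp6, Unc13c, Rab3c and Amph) lie right of 0 in both sexes.

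The female regions with the smallest p lay away from starts. At Stxbp6, chr12:45030610-45030991, in the span 43.9 kb from the start, had 4.00, 3.21 and 2.75 CPM in EE replicates 1 to 3 and 1.46, 2.80 and 1.18 CPM in SH replicates 1 to 3. SH replicate 2 reached into the EE range, and the log2 fold change was 0.90 ± 0.27 (adjusted p = 0.233, edgeR; 0.11 ± 0.15 in the overlapping male region). At the synaptotagmin gene Syt7, chr19:10402385-10404120 had 9.53, 7.1998 and 10.6 CPM in EE and 11.3, 12.1 and 13.8 CPM in SH, with no overlap (-0.45 ± 0.15; -0.16 ± 0.08 in males). At Syt1, chr10:108692003-108692276 had 1.39, 1.24 and 1.02 CPM in EE and 2.54, 2.53 and 1.75 CPM in SH, with no overlap (-0.90 ± 0.30; -0.12 ± 0.08 in males). At Pclo, chr5:14667534-14667792 had 2.57, 2.21 and 1.39 CPM in EE and 1.13, 1.18 and 0.873 CPM in SH, with no overlap (0.95 ± 0.32; -0.11 ± 0.15 in males).

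In males no member region passed either (edgeR, adjusted p under 0.05; 0% of 192834 regions did), and 69 of 1432 (4.82%) had an unadjusted p under 0.05, 18 higher and 51 lower, against 4.54% of all regions, 2.62% higher and 1.92% lower. No member region lay wholly above SH in EE and 3 lay wholly below, against 0.0638% and 0.0596% of all regions. The share of regions higher in EE was 38.6%, against 49.7% of all regions, and the median was -0.03 against 0.00. Syt1, with 181 regions, held the most: 35 of its regions (19.3%) were higher and 26 had an unadjusted p under 0.05, and without Syt1 41.4% of member regions were higher. Without Syt1, 43 of 1251 member regions (3.44%) had an unadjusted p under 0.05, 18 higher and 25 lower. In females 141 of 312 Syt1 regions (45.2%) were higher. Summed over all member regions, male libraries overlapped, with 7384 to 7708 CPM in EE and 7341 to 7832 CPM in SH.

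The male region with the smallest p, at Syt1 (chr10:108628821-108633623), ranged from 11.3 to 12.4 CPM (median 11.8) in EE and from 12.9 to 17.8 CPM (median 14.5) in SH. The groups did not overlap, as for 0.123% of all regions in either direction, and the log2 fold change was -0.29 ± 0.08 (adjusted p = 1.00, edgeR). The overlapping female regions were at -0.17 ± 0.17, 0.07 ± 0.21 and -0.12 ± 0.25. A region in Erc2 (chr14:27661653-27662743) ranged from 2.11 to 3.32 CPM (median 2.77) in EE and from 3.04 to 4.29 CPM (median 3.73) in SH, at -0.41 ± 0.12, whereas the overlapping female region was at 0.58 ± 0.35. A region in Stxbp6 (chr12:44857884-44859438) ranged from 8.14 to 12.004 CPM (median 10.2) in EE and from 6.62 to 9.87 CPM (median 8.00) in SH, at 0.33 ± 0.10, and the overlapping female region was at 0.18 ± 0.14. All 6 EE libraries lay above the SH median there. A second region in Syt1 (chr10:108933664-108934426) ranged from 1.09 to 1.54 CPM (median 1.23) in EE and from 1.51 to 2.31 CPM (median 1.63) in SH, at -0.48 ± 0.15.

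Female and male regions were matched where at least 50% of the female region was covered. Of 1269 matched member regions 42.4% were lower in EE in both sexes and 14.0% higher in both, against 30.5% and 22.8% of 145808 matched regions of the whole tables. More member regions were lower than higher in each sex, which by itself raises the share lower in both. The whole tables include regions outside genes and starts, of which 59.8% in females and 56.2% in males were higher. Log2 fold changes of matched regions correlated weakly between the sexes (Pearson r = 0.0619 for members and 0.0744 for all). The regions differ in width between the tables, because each sex has its own set.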

How the data were processed

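The authors deposited raw read counts per Ensembl gene (RNA, over introns and exons) and raw counts per region (ATAC, 1 set of regions per sex), without normalization, per the file headers and values. Per the submitters' processing notes, STAR 2.5.4, SAMtools 1.3.1, bedtools, MACS2 2.1.1, DiffBind 3.2.2, DESeq2 1.16.1 and edgeR were used with build mm10; the read counter and its strand setting were not stated. The deposited gene and region positions are in columns of unit other (coordinates), printed as they stand, with no statement of whether they begin at 0 or 1.

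Groups follow the labels. Housing was tested separately in each of the tables with the quasi-likelihood method of edgeR 4.0.16 (R 4.3.3; robust, TMM scaling, filterByExpr), with Benjamini-Hochberg adjustment over all features and calls under 0.05. Log2 fold changes are EE minus SH; each SE is its size over the root of F. Levels given are TMM-scaled CPM, and 0.5 CPM was added before logs for spreads and correlations. Correlations used 100000 permutations. DESeq2 1.42.0, limma-voom (limma 3.58.1), other scalings and filters, a replicate block, and leaving out each library were alternatives.

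Of 77 other pathway genes 76 matched a gene ID. The members and lists were chosen with earlier results of these data known, and the relation with striatal markers after seeing these values. Every member is named; library values are given for the 8 members with the smallest p per RNA table and the 4 regions with the smallest p per ATAC table. The fits were tested on simulated counts: a log2 change of 0.5 was recovered for 51.0% of planted genes in female RNA (14382 genes) and 72.4% in male RNA (14373 genes), and for 14.0% and 39.0% of planted regions in female and male ATAC (19991 and 19999 regions).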

Additional observations from a re-analysis of the deposited data

Results flagged for a closer look

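Library values in 60 groups, which do not cover all members, were screened for single libraries far from the rest of their group. Of these 60 groups 4 had one, where chance gives about 1 in 20. In female EE, replicate 6 was the lowest for Erc2, at 2468 CPM against 2701 to 2839.6 CPM in the other 5, and the highest for Syt2, at 32.8 CPM against 20.4 to 23.5 CPM. In male EE, replicate 1 was the highest for Syt1, at 4265 CPM against 3787 to 3869 CPM. In male SH, replicate 5 was the lowest for Doc2b, at 2.41 CPM against 3.02 to 3.38 CPM. Groups other than these 4 held such libraries too. Female SH replicate 2 was the highest SH library for Cplx2, at 137 CPM against 91.1 to 96.4 CPM. It was also the highest for Vamp2, at 52.7 CPM against 30.1 to 36.9 CPM.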

How the results depend on the processing

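Of the 5 counts of called members or regions, those of male RNA, female ATAC and male ATAC were 0 under all alternatives run, including regions chosen by midpoint or only at starts. The count in female RNA was 0, and 3 (Stxbp6, Rims3 and Syn3) with no filter, with DESeq2 and with the replicate block; leaving out a library gave 0 to 2, with 1 each without EE replicate 1 and SH replicate 1 and 2 without SH replicate 2. RLE or total count scaling, a 1 CPM filter and limma-voom gave 0. The count for the interaction was 0, and 1 (Stxbp6) with no filter, with DESeq2 and with the replicate block; leaving out a library gave 0 to 1. Over all female RNA genes, 117 were called with DESeq2, 168 with no filter and 95 with the block, against 0 in edgeR as used; the cause was not tested. Over the 19 alternatives, the log2 fold change of Stxbp6 in females ran from -0.37 to -0.28 (adjusted p from 6.34e-05 to 0.251), that of Rims3 from -0.35 to -0.27 (0.00159 to 0.251) and that of Syn3 from 0.17 to 0.23 (0.0108 to 0.396). None of the 8 members with the smallest p in each RNA table changed sign, but 21 of 46 members in females (log2 fold changes of -0.07 to 0.09 as reported) and 12 of 46 in males (-0.03 to 0.09) took both signs over the alternatives, none of them called. Without female SH replicate 2, 21 of 46 members were higher in females.

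Replicate numbers were not taken as pairs: the deviations of same-numbered libraries correlated at 0.03 to 0.32 in female RNA, -0.04 to 0.23 in male RNA, -0.07 to 0.07 in female ATAC and -0.12 to 0.21 in male ATAC, and not every pair was over 0.1. Over 0.1 were 4 of 6 pairs in female RNA, 2 of 6 in male RNA, 0 of 3 in female ATAC and 3 of 6 in male ATAC. Of the female EE RNA libraries 3 of 6 correlated best with their own number. In female RNA the column headers give both libraries of a replicate the same number, and the labels do not say whether they are pairs. In male RNA the replicate numbers mostly do not match the header numbers, so pairs by header number were not examined there. With 3 libraries per group, a log2 change of 0.5 in a female ATAC region was rarely recovered, so regions without a call there are not shown to be equal.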
